A study of Homo sapiens with 33 samples.

Results

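A set of 10 receptor tyrosine kinase genes was followed in RNA-seq data of malignant pleural mesothelioma (MPM) cell lines treated with palbociclib, an inhibitor of CDK4 and CDK6. The members were taken by gene symbol and not by a cut on their values, though with earlier results of these data known. They are EGFR, ERBB2, ERBB3, MET, AXL, PDGFRA, PDGFRB, FGFR1, KIT and EPHA2. These members are 10 of the 58302 genes of the matrix. All 10 were among the 17803 genes with at least 100 CP20M (counts per 20000000 reads) in at least 1 library, which were the genes tested. ERBB3, PDGFRA, PDGFRB and KIT met that minimum only in some of the lines, so that a test over all lines includes lines in which they were below it.

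Receptor tyrosine kinases carry signals of growth factors across the plasma membrane. A bound ligand brings receptor chains together, the kinase domains phosphorylate each other, and adaptor proteins bound to the phosphotyrosines relay the signal to the RAS-MAPK and PI3K-AKT pathways. These pathways raise D-type cyclins, the partners of CDK4 and CDK6, and EGFR, MET and AXL are well known in mesothelioma cells.

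The sensitive MPM lines were H2052 (2 pairs of DMSO and palbociclib libraries), H2452 (3 pairs), H28 (3 pairs) and MSTO-211H (3 pairs). The resistant lines were MPP89, MPM cells whose RB1 is mutated (2 pairs), and MeT-5A, non-malignant mesothelial cells carrying SV40 (1 pair and 1 untreated library). Treated cells received 1 µM palbociclib and their controls 0.1% DMSO, for 9 days or, in 1 experiment of each sensitive line, for 10 days. Those 4 experiments also hold a washout library, from cells kept for 48 h without the drug after the 10 days. A line is here a single culture history, so replicates are repeated experiments on the same line, and MPP89 and MeT-5A stand for resistance with only 1 line of each kind.

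The matrix holds 33 libraries, each scaled to close to 20000000. In 22 of them, whole numbers absent from the low values gave the depth, which ran from 12780000 to 19820000 reads, so that 1 read was worth at most 1.565 CP20M there. Of 9 mesothelial markers, 4 to 8 reached 100 CP20M in the control libraries of each line. The 4 lung epithelial markers together summed to 2 to 91 CP20M in 5 lines and to 841 to 1147 in MPP89. Among these markers only CDH1 reached 100 CP20M, and only in MPP89. Of the 4 leukocyte markers, CD68 alone reached 100 CP20M, in each line, and the 4 summed to 123 to 1236, with CD3E listed at 0 in each line. Of the 4 fibroblast markers (COL1A1, COL1A2, DCN and the member PDGFRB), 4 reached 100 CP20M in MPP89, where they summed to 73691 to 91225, and 1 to 3 did in the other lines, with sums from 96 to 23732. Endothelial markers summed to 3 to 150. The level of a gene per cell cannot be told apart from its share of the RNA in these scaled values.

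AXL was the most abundant member per length in 5 of the 6 lines, and MET was so in H28. Levels between genes are given as CP20M per kb of annotated exon, averaged over the control libraries of a line. AXL, the receptor of the vitamin K-dependent ligand GAS6, was at 5036 per kb in MPP89, 4138 in H2052, 2904 in MSTO-211H, 1831 in H28, 1713 in H2452 and 1620 in MeT-5A. In each line this was above at least 97.13% of the tested genes with a length. AXL alone made up 31.0% to 72.2% of the summed per kb level of the 10 members in the 13 control libraries where it came first. In H28 it came first in replicate 1, with 1963 per kb against 1916 for MET, and second in the other two libraries. With the longest protein-coding transcript as the length, the same member came first in each of the 6 lines.

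The other abundant members differed by line. MET, the receptor of hepatocyte growth factor, was second in H2452 and MSTO-211H, with 1223 and 2137 CP20M per kb. EPHA2, which binds the membrane-bound A ephrins of neighbouring cells, was second in H2052, MPP89 and MeT-5A, with 1046, 602.0 and 535.3 per kb. In MPP89 the second place fell to FGFR1 with the longest coding transcript as the length (652.2 per kb against 631.8 for EPHA2). EGFR, the receptor of EGF and TGFA, was at 1055 per kb in H28 and at 139.5 and 131.6 in MPP89 and MeT-5A. At the other end, ERBB3, PDGFRA and KIT never exceeded 92.28 per kb in the mean of a line.

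**Figure D1:**
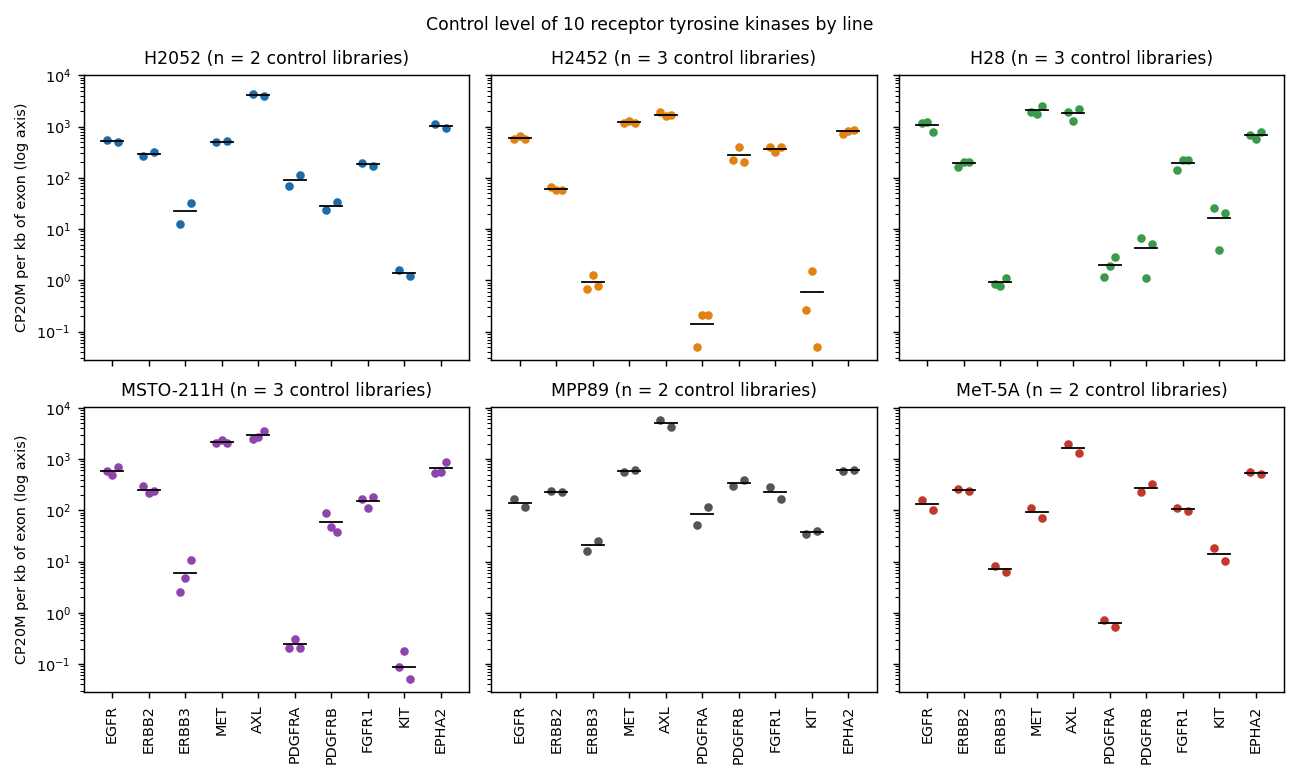
Control level of the 10 members in each line, in CP20M per kb of annotated exon on a log axis. Points are DMSO or untreated libraries, bars are their means, and values of 0 are drawn at 0.05; AXL has the highest mean in each line other than H28, where MET has.

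Each member differed in control level among the 6 lines (limma F test over 15 control libraries, FDR from 3.99e-10 for MET to 0.00824 for EPHA2). This sets little apart, since 96.3% of the tested genes did so. Between 2 lines, 95 of the 150 comparisons of a member were called, 63.3% where the background was 50.2%. A call required a fold change above 1.5 in either direction and a Benjamini-Hochberg FDR under 0.05 on the log2(CP20M + 10) scale. EPHA2 was the most even member, with 4 of 15 line pairs called, all of them H2052 above another line. MET was the least even by this count, with 13 of 15.

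For the ERBB family, EGFR (ENSG00000146648, chromosome 7 from 55019017 to 55211628 of GRCh38) was measured in the DMSO libraries at 8818 and 7918 CP20M in H2052. H2452 libraries held 9293, 10582 and 9220, those of H28 18485, 19317 and 12652, and those of MSTO-211H 9283, 7726 and 11251. MPP89 had 2626 and 1821, and MeT-5A had 2553 untreated and 1642 with DMSO. Each control library of the sensitive lines was thus above each of the resistant lines. H28 was called above its neighbour H2452 (0.77 on the log2 scale, limma FDR = 0.00637), and H2052 above MPP89 (1.93, FDR = 2.48e-05). H2452, MSTO-211H and H2052 were not called different as neighbours, nor were MPP89 and MeT-5A.

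ERBB2, which has no known ligand and pairs with the other ERBB receptors, lies on chromosome 17 from 39687914 to 39730426 (ENSG00000141736). Its control means were 2999 ± 342 CP20M (SD, n = 2) in H2052, 2605 ± 442 (n = 3) in MSTO-211H, 2552 ± 124 (n = 2) in MeT-5A, 2398 ± 105 (n = 2) in MPP89 and 1972 ± 220 (n = 3) in H28. No neighbours in this order were called different. Of the wider steps among these lines, only H2052 above H28 was called (0.60 on the log2 scale, limma FDR = 0.00309). H2452 stood below all of these lines at 627.7 ± 45.6 (n = 3), called lower than H28 (1.63 on the log2 scale, limma FDR = 2.05e-07). ERBB3, the kinase-impaired receptor of neuregulins (ENSG00000065361, chromosome 12 from 56076799 to 56103505), was low throughout. Its libraries held 147 and 386 CP20M in H2052, 187 and 296 in MPP89, 97 and 73 in MeT-5A, 30 to 124 in MSTO-211H, and 8 to 15 in H2452 and H28.

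MET (ENSG00000105976, chromosome 7 from 116672196 to 116798377) ran from 668 CP20M in MeT-5A to 15440 in MSTO-211H, a 23.3-fold range on the CP20M + 10 scale. H28 was at 14990 ± 2819 (SD, n = 3) and was not called different from MSTO-211H. H2452 followed at 8833 ± 498 (n = 3), MPP89 at 4230 ± 296 (n = 2) and H2052 at 3690 ± 190 (n = 2). The steps from H28 to H2452, from H2452 to MPP89 and from H2052 to MeT-5A were called. The step from MPP89 to H2052 was not.

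The PDGF receptors showed an uneven pattern. PDGFRA (ENSG00000134853, chromosome 4 from 54229280 to 54298245) was at 657 and 1105 CP20M in H2052 and at 491 and 1119 in MPP89. It stood at 27 or fewer in each control library of the other 4 lines, and in 1 library of H2452 it was listed at 0. PDGFRB (ENSG00000113721, chromosome 5 from 150113839 to 150155872) was at 2427 ± 430 (SD, n = 2) in MPP89, 1980 ± 506 (n = 2) in MeT-5A and 1982 ± 808 (n = 3) in H2452, which were not called different as neighbours. It was at 417.3 ± 202 (n = 3) in MSTO-211H, 205.5 ± 54.4 (n = 2) in H2052 and 31.0 ± 20.7 (n = 3) in H28. Thus H2052 had more PDGFRA than PDGFRB, H2452 had PDGFRB with almost no PDGFRA, MPP89 had both, and H28 had little of either.

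FGFR1 binds fibroblast growth factors (ENSG00000077782, chromosome 8 from 38400215 to 38468834). Its mean was 6439 ± 876 CP20M (SD, n = 3) for H2452, called above MPP89 at 3848 ± 1471 (n = 2; 0.79 on the log2 scale, limma FDR = 0.0226). The remaining lines ran from 1802 to 3406, with no call between neighbours. Of the wider steps among them, H28 above MeT-5A (0.89, limma FDR = 0.0119) and H2052 above MeT-5A (0.80, FDR = 0.0326) were called. The step from H28 to MSTO-211H was not. KIT, the receptor of stem cell factor (ENSG00000157404, chromosome 4 from 54657267 to 54740783), was at 396 and 447 in MPP89, at 208 and 114 in MeT-5A and at 289, 44 and 230 in H28. The other 3 lines held 0 to 18. EPHA2 (ENSG00000142627, chromosome 1 from 16124337 to 16156069) ran only from 2216 ± 142 (n = 2) in MeT-5A to 4330 ± 592 (n = 2) in H2052.

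Resistant and sensitive lines were compared by their mean control levels, to ask whether the receptor repertoire goes with resistance. EGFR was lower in the 2 resistant lines by 2.31 on the log2 scale, the smallest p that the 15 choices of 2 of 6 lines allow (exact permutation test, two-sided, p = 0.0667, adjusted p = 0.333 over the 10 members). MET was lower by 2.47 and KIT higher by 3.21, each with p = 0.133 in the same exact permutation test. AXL differed by 0.20 (exact permutation p = 0.8). No p under 0.05 can be reached with 6 lines.

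Under palbociclib, AXL mRNA fell in the sensitive lines and PDGFRB fell with a less stable call, while the other 8 members were not called over the 11 pairs. The 2 members called down of 10 stood against a background of 9.37% of the tested genes called down. No member was called up, where 5.58% of the genes were. The median log2 change of the members was 0.01, and that of all genes tested was -0.11. Of the 2663 genes called, 994 were up (37.3%), and with median-of-ratios scaling 1646 of 2611 were up (63%).

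AXL (ENSG00000167601) lies on chromosome 19 from 41219223 to 41261766 of GRCh38, on the forward strand. RefSeq gives it 2 start sites in GRCh38.p14. The bases before each are shown because AXL is the member whose mRNA changed most steadily. PDGFRB, on the reverse strand, is shown beside them as the other member called down. Capitals mark the letters GGGCGG of the SP1 motif and GGAATG of the TEAD motif, on either strand.
AXL, upstream start, chr19:41218973-41219222, forward strand: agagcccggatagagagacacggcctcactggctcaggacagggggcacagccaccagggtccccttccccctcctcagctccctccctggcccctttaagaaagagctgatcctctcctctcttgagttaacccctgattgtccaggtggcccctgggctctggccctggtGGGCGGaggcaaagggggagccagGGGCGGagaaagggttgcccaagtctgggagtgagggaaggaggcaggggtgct
AXL, internal start, chr19:41226505-41226754, forward strand: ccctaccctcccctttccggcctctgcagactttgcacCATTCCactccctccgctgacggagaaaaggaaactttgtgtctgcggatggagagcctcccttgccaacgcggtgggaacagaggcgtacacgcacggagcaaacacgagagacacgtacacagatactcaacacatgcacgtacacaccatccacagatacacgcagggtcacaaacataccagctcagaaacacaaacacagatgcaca
PDGFRB, chr5:150155846-150156095, reverse strand: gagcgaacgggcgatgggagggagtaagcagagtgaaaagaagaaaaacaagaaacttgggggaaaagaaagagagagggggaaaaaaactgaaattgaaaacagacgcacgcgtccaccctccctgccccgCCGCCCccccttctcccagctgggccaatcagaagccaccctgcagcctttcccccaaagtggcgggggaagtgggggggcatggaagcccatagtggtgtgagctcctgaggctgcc
The search covered these bases and the 50 after the start, for SP1, TEAD, AP-1 (TGACTCA), E2F (TTTCGCG) and TATA box (TATAAA) letters on both strands. The upstream AXL window held 2 SP1 matches, the internal one 1 TEAD match, and the PDGFRB window 2 SP1 matches. None of the 3 held an AP-1, E2F or TATA match. SP1 letters stand in 45.0% and TEAD letters in 14% of the 35116 RefSeq promoter windows of this length, so neither match sets these genes apart. The upstream AXL window had 7 CpG, the internal one 17 and PDGFRB 11, against a median of 14. FGFR1 and ERBB3 had no entry in this table.

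In H2052, AXL fell from 21992 and 20500 CP20M with DMSO to 11277 and 10889 with palbociclib. In H2452 it went from 9701, 8203 and 8482 to 3950, 4716 and 3727. In H28 it went from 10076, 6555 and 11568 to 4875, 4806 and 4141. In MSTO-211H it went from 12806, 14068 and 17854 to 7970, 8039 and 7678. In each of the 4 lines each treated library was below each DMSO library. Over the 11 pairs the change was -0.98 ± 0.087 on the log2 scale (SE, n = 11 pairs, limma FDR = 3.16e-06), or 0.505-fold, and AXL was lower in 11 of 11 pairs. By p it had rank 144 of 17803 genes. With median-of-ratios scaling, which moved the median change of all genes from -0.11 to 0.04, AXL was at -0.81 (limma FDR = 1.15e-05). In the 7 pairs treated for 9 days the change was -0.86 (limma FDR = 0.000986), and in the 4 pairs treated for 10 days it was -1.20 (FDR = 0.00662).

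PDGFRB, the second member called down, changed by -0.60 ± 0.22 (SE, n = 11 pairs, limma FDR = 0.0368) and was lower in 8 of 11 pairs. The libraries of the 4 lines did not separate. In MSTO-211H it was at 648, 333 and 271 CP20M with DMSO and at 130, 372 and 235 with palbociclib, and in H28 at 48, 8 and 37 against 8, 13 and 9. In H2452, where it was abundant, it was at 1576, 2912 and 1457 against 1251, 2588 and 1060, lower in each pair by 0.17 to 0.46. H2052 had 167 and 244 against 173 and 142. The call ended without H2052 replicate 2 (FDR = 0.0633), H2452 replicate 3 (0.0526), H28 replicate 1 (0.0793), H28 replicate 3 (0.077) or MSTO-211H replicate 1 (0.0679), and in the 9-day pairs (FDR = 0.211) and 10-day pairs (0.0814) taken alone. It also ended without any 1 of the lines, H2052 (limma FDR = 0.0612), H2452 (0.0755), H28 (0.106) or MSTO-211H (0.0601). With median-of-ratios scaling the limma FDR was 0.111. The 4 fibroblast markers, PDGFRB included, summed to a median of 1878 CP20M (96 to 23732) in the 11 DMSO libraries and 1294 (37 to 15729) in the 11 palbociclib libraries, and their part in the result was not tested.

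ERBB2 and FGFR1 passed the FDR but not the fold. ERBB2 was higher in 10 of 11 pairs, by 0.33 ± 0.069 (SE, limma FDR = 0.00162). Its largest difference was in H2452, the line with the least of it, where 680, 596 and 607 CP20M with DMSO stood against 984, 863 and 947 with palbociclib, without overlap (0.56, limma FDR = 0.015). FGFR1 was higher in 10 of 11 pairs, by 0.38 ± 0.094 (SE, limma FDR = 0.00466). In H2052 it was at 3404 and 2884 against 4629 and 4505, and in H28 at 2490, 3861 and 3866 against 3744, 8532 and 4409, where 1 treated library stood far above the others. An FDR under 0.05 without regard to the fold was reached by 48.3% of the tested genes.

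The remaining members showed small or opposed values over the 11 pairs. EGFR was at 0.05 ± 0.069 (SE, limma FDR = 0.547), MET at 0.04 ± 0.10 (FDR = 0.778) and EPHA2 at -0.01 ± 0.12 (FDR = 0.943). With median-of-ratios scaling EGFR was at 0.23 (limma FDR = 0.03) and MET at 0.21 (FDR = 0.11). KIT was at -0.52 ± 0.23 (FDR = 0.0758), PDGFRA at 0.16 ± 0.19 (FDR = 0.516) and ERBB3 at -0.12 ± 0.21 (FDR = 0.656). Single lines set the values of KIT and PDGFRA. KIT was at -0.09 without H28 and at -0.77, called down, without MSTO-211H (limma FDR = 0.0335), and PDGFRA was at 0.01 without H2052 and at 0.40 without H28 (FDR = 0.0518). KIT and PDGFRA were close to 0 in H2452 and MSTO-211H, where their log2 values depend on the pseudocount of 10. ERBB3 was below 20 CP20M in H2452 and H28.

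**Figure D2:**
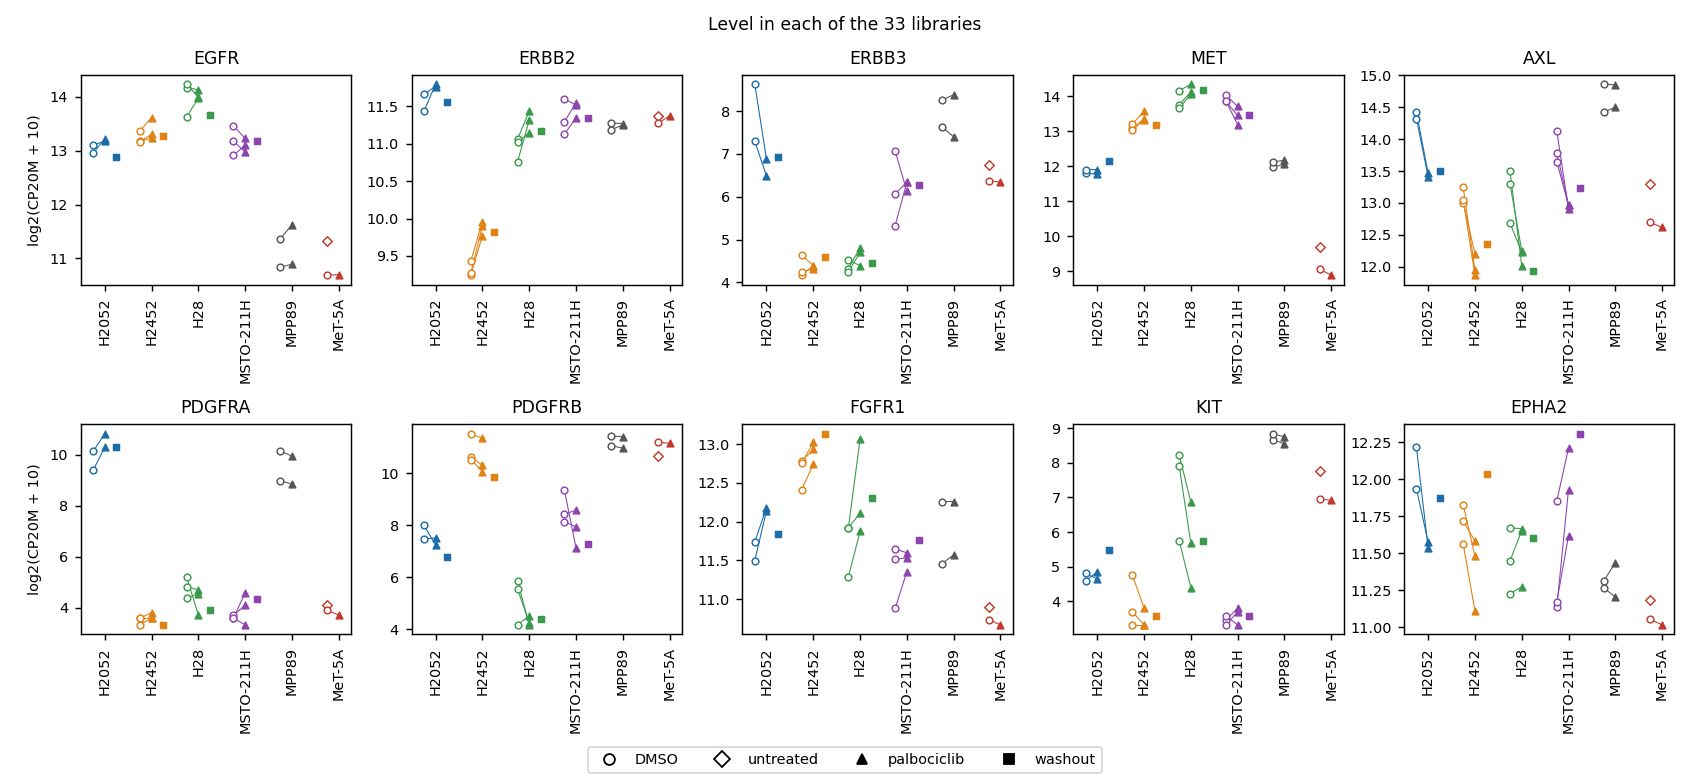
Level of each member in the 33 libraries, as log2(CP20M + 10), by line and treatment. Lines join the DMSO and palbociclib libraries of an experiment; for AXL the treated libraries lie below the DMSO libraries in the 4 sensitive lines and beside them in MPP89 and MeT-5A.

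Taken line by line, few members passed. In H2052, AXL was called down (-0.94, limma FDR = 0.039) and PDGFRA was called up (0.80, FDR = 0.039), against 13% of the genes called down and 4.67% called up. PDGFRA went from 657 to 1235 CP20M in the first experiment and from 1105 to 1792 in the second. In H2452, AXL was called down (-1.09, limma FDR = 0.0157; background 10.8% down, 6.04% up), and in MSTO-211H likewise (-0.90, FDR = 0.0392; background 7.94% down, 5.9% up). In H28, KIT was called down (-1.65, limma FDR = 0.0302), and AXL missed the threshold with a change of the same size as elsewhere (-0.99, FDR = 0.0517). The background there was 7.34% down and 5.89% up. KIT in H28 was at 289, 44 and 230 CP20M with DMSO and at 106, 11 and 41 with palbociclib, lower in each pair although the groups overlap.

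Fits of a single line rest on 2 or 3 pairs, and their calls changed with the processing. With median-of-ratios scaling AXL lost its call in H2052 (-0.65, limma FDR = 0.0504). In H28 the call of KIT ended without any 1 replicate (limma FDR from 0.062 to 0.218). That of AXL in H2452 ended without replicate 1 (limma FDR = 0.125) or replicate 3 (0.0915), with changes of -0.99 and -1.05. In each of these H28 and H2452 runs without a replicate, 0 of the 17803 tested genes were called. The calls lost there are thus not particular to KIT or AXL. This does not hold for H2052 with median-of-ratios scaling, where other genes were called, PDGFRA and FGFR1 among them. When the minimum of 100 CP20M had to be met within the libraries of the line itself, AXL (limma FDR = 0.00917) and FGFR1 (FDR = 0.0286) were also called in H28, and ERBB3 in H2052 (-1.27, FDR = 0.000893), where it went from 147 and 386 CP20M to 80 and 108.

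**Figure D3:**
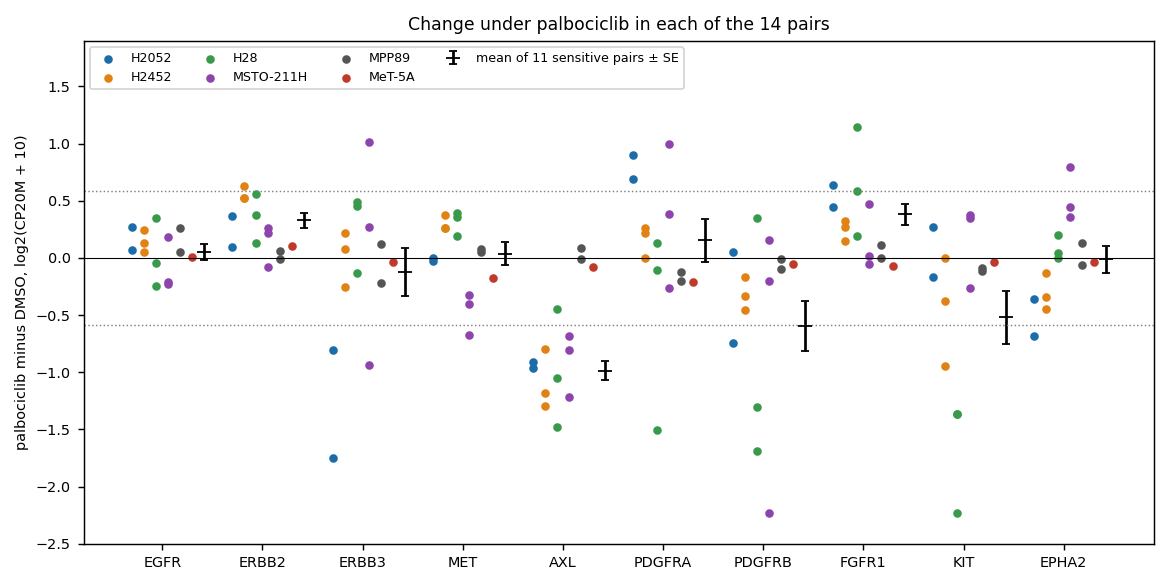
Palbociclib minus DMSO on the log2(CP20M + 10) scale for each of the 14 pairs, by member and line, with the mean of the 11 sensitive pairs ± SE in black. Dotted lines mark a 1.5-fold change; the 11 sensitive pairs of AXL lie between -1.48 and -0.45, and its 3 resistant pairs between -0.08 and 0.09.

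Responses of MET, KIT and EPHA2 differed among the sensitive lines by an F test, where 37.1% of the genes did so. MET was higher with palbociclib in each of the 3 pairs of H2452 (mean 0.30 ± 0.066, SD) and of H28 (0.31 ± 0.11), near 0 in both pairs of H2052 (-0.01 ± 0.019) and lower in each of the 3 pairs of MSTO-211H (-0.47 ± 0.18; limma F test, FDR = 0.00282). In MSTO-211H its libraries held 14850, 16736 and 14725 CP20M with DMSO and 9287, 13346 and 11157 with palbociclib, without overlap. EPHA2 ran the other way. It was higher in each pair of MSTO-211H (0.53 ± 0.23, SD), lower in each pair of H2052 (-0.52 ± 0.22) and H2452 (-0.31 ± 0.16), and close to 0 in H28 (0.08 ± 0.11; F test, FDR = 0.0024). In H2052 EPHA2 went from 4748 and 3911 to 2960 and 3040, and in MSTO-211H from 2246, 2300 and 3692 to 3894, 3137 and 4729. For KIT (limma F test, FDR = 0.00557) the difference came with the falls in H28 (-1.65 ± 0.50), since its DMSO and palbociclib libraries held 19 CP20M or less in the other lines, and with a pseudocount of 1 its FDR was 0.111. AXL showed no such difference (FDR = 0.896), its line means running from -1.09 to -0.90.

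In the resistant lines no member was called, and no gene was (limma, 0% up and 0% down, with 1258 genes at an unadjusted p under 0.05). AXL was at 29815 and 21896 CP20M with DMSO and at 29558 and 23248 with palbociclib in MPP89, and at 6625 and 6265 in MeT-5A. Its mean change over the 3 pairs was -0.002 ± 0.043 (SE). The fall of AXL in the sensitive lines was larger than in the resistant lines by -0.98 ± 0.17 on the log2 scale (SE, limma interaction term, FDR = 0.00454). AXL was the only member called in this test, where 5.62% of the genes were called with the sensitive lines moving lower and 1.13% with them moving higher. ERBB2 (0.27, FDR = 0.212) and FGFR1 (0.37, FDR = 0.227) were not called in the same test. PDGFRB changed by 0.06 or less on the log2 scale in the mean of each resistant line, but its difference between the classes was -0.54 ± 0.43 (SE, limma FDR = 0.452).

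Washout asked whether the levels returned once palbociclib was removed. AXL remained low. In H2052 it was at 20500 CP20M with DMSO, 10889 with palbociclib and 11634 after washout, and in H2452 at 8482, 3727 and 5208. In H28 it was at 11568, 4141 and 3899, and in MSTO-211H at 17854, 7678 and 9620. The washout library was above the palbociclib library in 3 of 4 lines and far below the DMSO library in each. Against DMSO, AXL after washout was at -0.99 ± 0.14 (SE, n = 4 experiments, limma FDR = 0.00514), and against palbociclib at 0.20 ± 0.14 (FDR = 0.592).

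PDGFRB was at 244, 142 and 101 CP20M with DMSO, palbociclib and washout in H2052, and at 1457, 1060 and 911 in H2452. In H28 it was at 37, 9 and 11, and in MSTO-211H at 271, 235 and 145. After washout it was below DMSO by -0.97 ± 0.18 (SE, limma FDR = 0.0129), and it was lower than with palbociclib in 3 of 4 lines (-0.30 ± 0.18, FDR = 0.552). AXL and PDGFRB were the 2 members called lower after washout than with DMSO, where 2.95% of the genes were called down and 2.81% up. In the palbociclib libraries of the same experiments both were called down too (-1.20 and -0.68), against 13.3% of the genes down and 5.3% up. These comparisons share the DMSO libraries. The call of PDGFRB after washout ended without H2052 (limma FDR = 0.0864) or without MSTO-211H (FDR = 0.0586).

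No member was called between washout and palbociclib (limma, background 1.4% up and 0% down, 2322 genes at an unadjusted p under 0.05). EGFR (-0.19 ± 0.11, SE) and EPHA2 (0.22 ± 0.13) had differences of similar size to AXL. EPHA2 in MSTO-211H, higher with palbociclib, was at 3692, 4729 and 5057 CP20M. In H2452 it was at 3621, 2848 and 4194, so that the washout library there was above both others. ERBB2 in H2452 stayed above DMSO, with 607, 947 and 895. FGFR1 after washout was above DMSO in 4 of 4 lines (0.31 ± 0.11, SE, limma FDR = 0.0985).

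**Figure D4:**
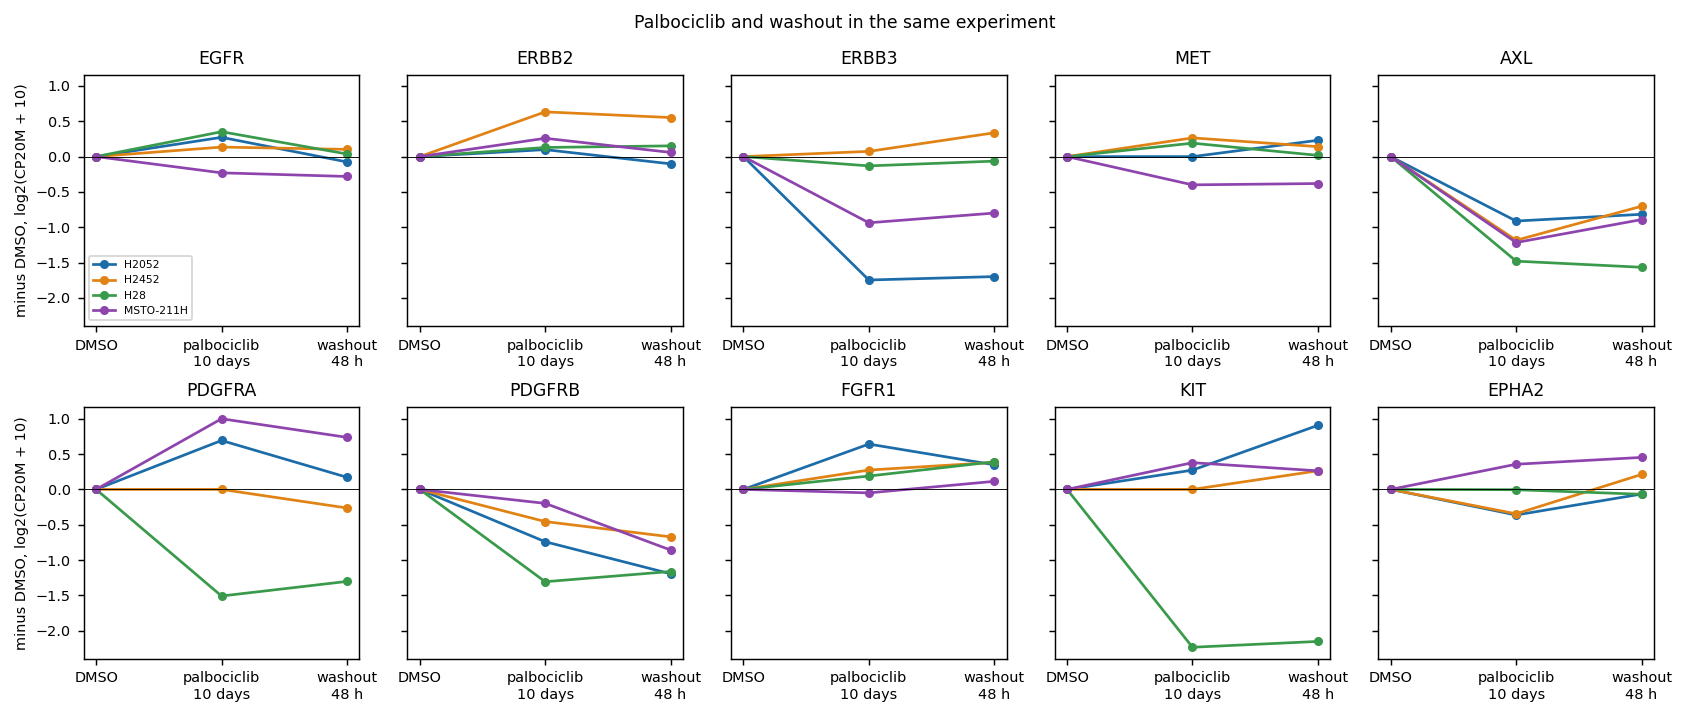
Difference from the DMSO library of the same experiment, on the log2(CP20M + 10) scale, with palbociclib for 10 days and after 48 h of washout, for each member in the 4 sensitive lines (1 experiment each). AXL after washout lies between -1.57 and -0.70.

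Among related genes, listed by role, few moved in the sensitive lines. Over the 4 lists together, 5 of 105 tested genes were called up (4.76%) and 4 down (3.81%), where the background was 5.58% and 9.37%. Of 42 tested other receptor tyrosine kinases, 1 was called up and 2 down (median log2 change -0.04). Of 26 tested ligands, 3 were called up and 1 down (median -0.10). Of 22 adaptors and transducers, 1 was called up (median -0.05), and of 15 tested negative regulators and sheddases, 1 was called down (median -0.14). The median over all genes was -0.11.

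PIK3R2 and LRIG3 were called and moved the same way in 11 of 11 pairs. PIK3R2, which encodes the p85 beta regulatory subunit of PI3K, rose by 0.63 ± 0.083 (SE, limma FDR = 5.6e-05), from a mean of 2195 to 3350 CP20M. Its smallest difference was in the first MSTO-211H pair (3271 against 3322). LRIG3, of a family of transmembrane proteins that restrain receptor signalling, fell by 0.98 on the log2 scale (SE 0.17, limma FDR = 0.000491), from 226.6 to 93.2 in the mean. In MSTO-211H it went from 657, 607 and 477 to 252, 294 and 207, and in H2052 from 196 and 255 to 51 and 63. In MPP89 it was at 388.0 ± 69.3 with DMSO (SD, n = 2) and 348.5 ± 43.1 with palbociclib.

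The other 7 called genes are named after their values were seen. GAS6, the ligand of AXL, was called up (0.63 ± 0.13, SE, limma FDR = 0.00114) and was higher in 9 of 11 pairs. It went from 10578 and 9166 CP20M to 19740 and 16124 in H2052, from 4208, 3770 and 3360 to 6286, 6313 and 6071 in H2452, and from 1931, 1348 and 1844 to 2602, 2879 and 4917 in MSTO-211H. In H28 it was at 1427, 1264 and 1250 against 1627, 1187 and 1249, with overlap. The ligand and its receptor thus moved in opposite directions in H2052, H2452 and MSTO-211H. After washout GAS6 was at 0.49 against DMSO (limma FDR = 0.105).

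FGFR4, another fibroblast growth factor receptor, was called down (-0.68 ± 0.17, SE, limma FDR = 0.00521) and was lower in 10 of 11 pairs. H28 held most of it, at 3855, 4096 and 4403 CP20M with DMSO and 2448, 2546 and 2688 with palbociclib. FGFR4 was also called lower after washout than with DMSO (-0.99, limma FDR = 0.0354). The remaining called genes were scarce, with means under 71 CP20M in each condition. The receptor tyrosine kinase FLT4 (-0.75) and the ligand NRG2 (-0.73) were called down. The kinase STYK1 (0.60) and the ligands FGF7 (0.70) and FGF18 (0.62) were called up. The 3 ligands did not move alike in the lines. NRG2 was higher in each H28 pair (0.63, 0.73 and 0.94) and lower in each pair of the other lines. FGF18 rose by 1.60 to 2.10 in H28 and lay between -0.30 and 0.58 elsewhere. FGF7 rose by 1.22 to 2.36 in MSTO-211H and by 0.42 and 1.54 in H2052. In H2452 and H28 it lay between -0.10 and 0.26. The receptor tyrosine kinase RET, not called over the 11 pairs (0.22, limma FDR = 0.0906), was called up after washout against DMSO (0.97, limma FDR = 0.0211). Its washout libraries held 41, 14 and 15 CP20M in H2452, H28 and MSTO-211H, against DMSO means of 8.0, 4.0 and 1.3. These values are near the pseudocount of 10. In H2052 the washout library held 264, within its DMSO libraries of 177 and 287. None of the listed genes was called between washout and palbociclib, between the classes of lines, or in the resistant lines.

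**Figure D5:**
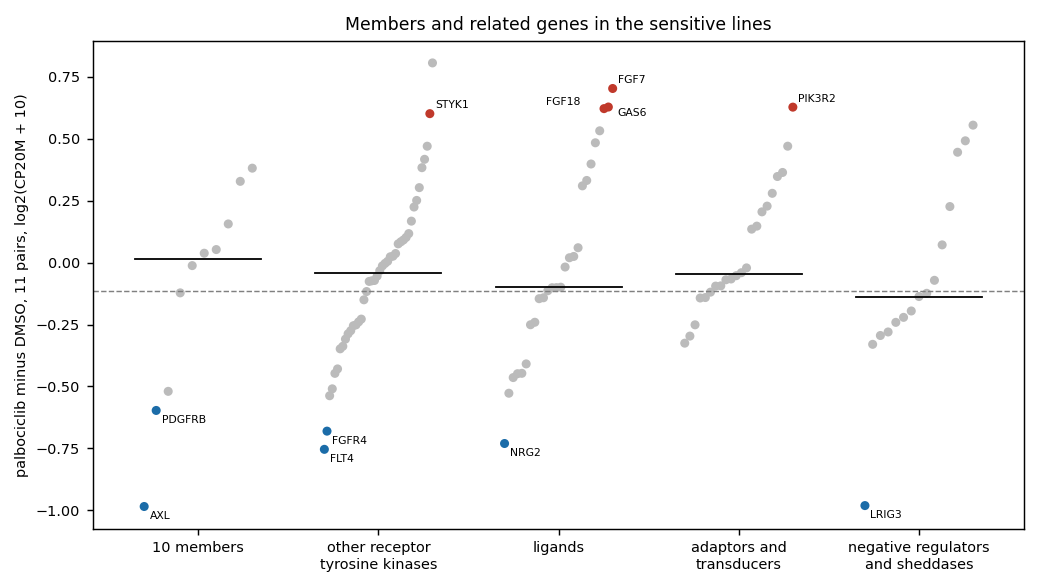
Log2 change under palbociclib over the 11 sensitive pairs for the 10 members and the tested genes of 4 related lists, sorted within each list. Red and blue points were called up and down, bars are list medians, and the dashed line is the median of all tested genes (-0.11).

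The genes most like each member over the 33 libraries were found by Pearson's r of log2(CP20M + 10). Libraries of a line share that line, so r mostly follows differences between lines. For EGFR, AXL and FGFR1 the closest gene lies inside the member on the opposite strand. EGFR-AS1 had r = 0.995 with EGFR and 5.21% to 7.56% of its value, AC011510.1 had r = 0.989 with AXL and 4.67% to 7.28%, and AC087623.2 had r = 0.982 with FGFR1 and 5.58% to 8.31%. Whether the counting used strand is not given in the sources used here, so the reads of such a gene and its partner cannot be told apart. The closest genes elsewhere in the genome were VRK2 for AXL (r = 0.909), AC025576.1 for EGFR (0.944) and CRYL1 for FGFR1 (0.858).

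ERBB2 was most like SYNGR1 (r = 0.967) and ITM2C (0.965), and ERBB3 most like HIST2H3DP1 (0.947) and SYT16 (0.946). MET was closest to CASP8 (r = 0.932) and PARP8 (0.930), PDGFRA to CACNA1C (0.964) and ITM2A (0.964), and PDGFRB to PRDM2 (0.942) and STXBP5 (0.942). KIT was closest to AL162231.2 (r = 0.915) and DMRTA1 (0.909). EPHA2, the most even member, had no gene above r = 0.729 (BTBD10), followed by EVA1A (0.726). Among the members themselves, EGFR and MET had the highest r (0.803), then AXL and ERBB3 (0.78), and EGFR and PDGFRB had the lowest (-0.697).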

How the data were processed

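RNA of 33 libraries of 6 established cell lines was sequenced by the authors from directional libraries in paired-end mode. Per the submitters' processing notes, reads were trimmed with Trimmomatic 0.36, mapped to GRCh38 with STAR 2.5.3 and counted with HTSeq 0.9.1. The deposited values are a normalized score, counts per 20000000 reads (CP20M) rounded up to whole numbers by the authors. They are not counts of reads, so no count model was used here. The matrix holds no columns of the authors' comparisons.

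The log2 of CP20M plus a pseudocount of 10 was modelled in limma 3.58.1 (R 4.3.3; lmFit, then eBayes with its trend option). The 17803 genes that reached 100 CP20M in any library were tested. Fold changes are on this scale, which understates those of low genes. A gene was called where it changed more than 1.5-fold in either direction with FDR < 0.05 (Benjamini-Hochberg over all genes tested). The experiment was a block, as the study paired treated and control samples, and for washout the line was the block. Deviations from the group means correlated between the libraries of a pair (r from 0.181 to 0.783 across genes). Limma p-values of a single line, and of the F tests among lines, measure the spread between libraries or experiments of the same line. Where a common change was fitted over several lines, the spread between pairs also holds differences in response between lines. For washout, with a single experiment per line, the spread is that of the responses between lines. At most 4.33% of tested genes had the same value in 2 replicates.

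Single values were compared between classes of lines with an exact permutation test. Lengths and positions are from GENCODE 44, matched by gene ID for 98.99% of tested genes, and promoters from RefSeq. The functions were tested on simulated data. Fits of a single line with the filter over all libraries there recovered few of the genes changed by the smaller fold. In H2052 they recovered none at either simulated fold, although the measured data of that line gave 3143 called genes. A gene not called in a line is thus not shown to be unchanged there. The alternatives changed the pseudocount (1 and 50), the filter (none, or applied within the libraries fitted), the scaling (median of ratios), the trend or the block (each left out), the units (line means), the treatment time (9 or 10 days alone), or left out each pair or line.

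The members and lists were chosen with earlier results of these data known. Named genes were the 10 members, list genes called with each of the 11 pairs in one direction (at most 5 per direction), at most 3 called genes per list for washout and for the classes, and the 2 genes with the highest r to each member. Intervals from depth were not computed, because CP20M values keep no read count. Figures were drawn with matplotlib 3.10.9.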

Additional observations from a re-analysis of the deposited data

Results flagged for a closer look

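The change of AXL under palbociclib differed between the sensitive and resistant lines, by -0.98 on the log2 scale (limma interaction term, FDR = 0.00454), with 11 of 11 sensitive pairs lower and 1 of 3 resistant pairs higher. MET, KIT and EPHA2 responded differently among the sensitive lines by the limma F test, where 37.1% of the tested genes did so. EPHA2 (FDR = 0.0024) was higher in MSTO-211H and lower in H2052 and H2452, and MET (FDR = 0.00282) was lower in MSTO-211H and higher in H2452 and H28. KIT (FDR = 0.00557) was above 19 CP20M only in H28 among the DMSO and palbociclib libraries of these lines, and it lost its call with a pseudocount of 1. No group has more than 3 libraries, so single libraries were not tested as outliers.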

How the results depend on the processing

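Over the 11 sensitive pairs, where AXL and PDGFRB were the 2 members called, AXL was called under each alternative run, and its change against the resistant lines was the 1 member difference called under each of 21 alternatives. A single member was called (1) with a pseudocount of 50, without a filter, with median-of-ratios scaling, in the 9-day or the 10-day pairs alone and with line means as units, and 1 to 2 when a pair or line was left out. PDGFRB lost its call without any 1 line, and the 2 calls without MSTO-211H were AXL and KIT. In H2052 the 2 calls became 0 with a pseudocount of 1, without a filter or without the eBayes trend, and with median-of-ratios scaling they were PDGFRA and FGFR1 (0.83, limma FDR = 0.0302), both up, with AXL lost. In H2452 the count was 2 with median-of-ratios scaling, where ERBB2 was called up (0.75, limma FDR = 0.0119), and 0 to 1 without a replicate. H28 had 2 calls with a pseudocount of 50, 3 with the filter within its libraries and 0 without any 1 replicate. MSTO-211H had 0 without a filter, with median-of-ratios scaling or without any 1 replicate. Where no tested gene was called, a member count of 0 says nothing particular about the members. That was so in H2052 without the eBayes trend, and in H2452, H28 and MSTO-211H in the runs without a replicate that gave 0. The 3 members that responded differently among the sensitive lines became 5 with a pseudocount of 50. Palbociclib against DMSO in the washout experiments gave 1 call with a pseudocount of 50 or median-of-ratios scaling and 1 to 2 without a line, as did washout against DMSO without a line (1 to 2). Small changes turned direction. ERBB3 over the sensitive lines was at 0.0016 and EPHA2 at 0.16 with median-of-ratios scaling, and at 0.20 and 0.032 in the 9-day pairs. Leaving out a pair or line moved ERBB3 from -0.27 to 0.13, MET from -0.066 to 0.23 and EPHA2 from -0.22 to 0.10, KIT from -0.77 to -0.09, PDGFRA from 0.01 to 0.40, and AXL in the resistant lines from -0.046 to 0.037. The cause was not tested. Median-of-ratios scaling raised the median change of all genes by 0.15.

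Without the replicate block but with the line kept in the fit, 2 members were called over the sensitive lines, 1 in H2052, H2452, H28 and MSTO-211H each, 0 in the resistant lines, 1 in the difference between sensitive and resistant lines and 1 among the sensitive lines. The single call was AXL in H2052, where PDGFRA was lost (limma FDR = 0.153), and in H28 AXL (FDR = 0.0421) took the place of KIT (FDR = 0.25). Among the sensitive lines KIT (FDR = 0.285) and EPHA2 (FDR = 0.0597) were lost. In the washout experiments the line itself was the block, so leaving it out put the differences between lines into the error. There 0 members were called for washout against palbociclib, for washout against DMSO and for palbociclib against DMSO. Those 0 counts cannot be read beside the others.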
